A study of Caenorhabditis elegans with 60 samples.

Results

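WAGO-1 and CSR-1B were each immunoprecipitated (IP) through a FLAG tag from *C. elegans* hermaphrodites at the fourth larval stage (L4), and the small RNAs bound to each protein were sequenced and set directly against each other. The comparison takes 4 of the 60 libraries of the study, 2 IPs of each protein, and the 4 inputs of the same strains show how far the strains differed before the IP. The WAGO-1 animals (USC988) carry *wago-1(cmp92[GFP::3xFLAG::wago-1])* together with *mut-16(cmp41[mut-16::mCherry])*, a tag on a protein that gathers the small RNA synthesis machinery (the study's methods also list a 2xHA tag in this allele). The CSR-1B animals (USC1112) carry *csr-1a(cmp135)*, which removes the longer isoform CSR-1A, and *csr-1b(cmp167[2xFLAG::csr-1])*, so that CSR-1B is the CSR-1 isoform left. All animals were grown at 20 °C and collected 48 h after hatching by the labels, as whole worms, and each input was taken from the lysate that went on to the IP. Other L4 libraries serve as reference: FLAG IPs and inputs of wild-type animals without a tag (3 each), IPs and inputs from animals in which both isoforms are tagged (CSR-1A + B, USC1111, *csr-1b(cmp166[2xFLAG::csr-1])*, 2 each), IPs (3) and inputs (2) of animals with a tagged CSR-1A (USC1110, *csr-1a(cmp165[2xHA::csr-1a])*), and wild-type total small RNA (2) and mRNA (3). Argonaute, strain, tag (GFP::3xFLAG against 2xFLAG) and set of libraries change together between the 2 proteins and cannot be told apart in the direct comparison.

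In worms, RNA-dependent RNA polymerases copy target transcripts into short antisense RNAs, called 22G-RNAs, which are loaded into a large clade of worm-specific Argonautes (the WAGOs) and into CSR-1. WAGO-1 acts in germ granules with small RNAs made at mutator foci, and its class of small RNAs is known for silencing transposons, pseudogenes and many genes. CSR-1 is known for binding small RNAs of genes that the germline expresses, where it is thought to protect or license those genes and to tune their mRNAs.

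The counts on genes were 4774327 and 6802150 in the WAGO-1 IPs and between 5395219 and 10413430 in the inputs. CSR-1B IP replicate 2 held 7232476 counts, but replicate 1 held 570862, so that 3 counts in replicate 1 correspond to 3.89 RPM (reads per 1000000 mapped to the genome). Replicate libraries correlated across genes with Spearman's rho between 0.932 and 0.981, over genes that are not independent, the lowest value being that of the CSR-1B IPs. No 2 libraries were identical, and every replicate pair differed by more than sampling noise, with a chi-square per degree of freedom of at least 2.67. In wild-type L4 mRNA, sperm-named genes had a median of 17.2 FPKM (fragments normalised to exon length and library depth) and vitellogenins, the yolk proteins of the adult intestine, 2.31 FPKM, against a median of 5.32 FPKM over the genes tested. Nothing in the labels says whether replicates were grown separately, so p-values measure only the spread between these libraries. Intervals and detection limits cover counting error only.

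Small RNAs divided sharply between the 2 proteins. Of 13051 genes tested, 2751 (21.1%) were higher in the WAGO-1 IP and 3225 (24.7%) were higher in the CSR-1B IP. A call needs a 2-fold difference, an edgeR adjusted p no higher than 0.05, and 10 RPM or more on average in the IP where the gene is higher. The other 7075 genes were not called. The fold rests on how the libraries are scaled: the median log2 difference (WAGO-1 over CSR-1B) over all genes was 0.93 with the TMM factors of edgeR and −0.23 with library size alone, and 238 of the genes called higher in the WAGO-1 IP had a lower mean RPM there. Under each of 6 scalings, 2122 genes (16.3% of those tested) were higher in the WAGO-1 IP and 3129 (24%) in the CSR-1B IP, and no gene changed sides. Genes named below that pass in only some scalings are said to do so.

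Among the protein-coding genes that met the rule for naming, given with the processing below, most of the largest differences towards WAGO-1 were on X-linked genes. Their small RNAs were almost missing from the CSR-1B IP. Genes outside that rule reached log2 differences of 10.1 on chromosome V and 9.46 on chromosome II. Of the 8 genes that lead this direction, 7 lie on the X chromosome, and F41C3.8 lies on chromosome II. *frm-3* (WBGene00001490, chromosome X, 11576247 to 11581727 in WBcel235), which encodes a FERM domain protein, had 18.2 and 19.7 RPM in the WAGO-1 IPs and 0 and 0 RPM in the CSR-1B IPs. Its libraries did not overlap, and with 3 counts over both CSR-1B IPs as the limit of detection its level was at least 64.0-fold higher in the WAGO-1 IP (edgeR adjusted p = 1.36e-09). *hex-5*, a hexosaminidase gene, had 10.2 and 10.2 RPM in the WAGO-1 IPs and 0 and 0 RPM in the CSR-1B IPs, which is at least 34.3-fold higher in the WAGO-1 IP.

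*aakg-2* (WBGene00020633, chromosome X, 16866069 to 16869031), a regulatory subunit of the energy sensor AMP-activated kinase, had 142 and 137 RPM in the WAGO-1 IPs and 1.30 and 0.430 RPM in the CSR-1B IPs. That is 5 counts in all in the CSR-1B IPs, and the ratio of pooled RPM was 280 (95% interval 120 to 864, counting error only). *flp-12*, an FMRFamide-like neuropeptide gene, had 76 and 62.7 RPM in the WAGO-1 IPs and 0 and 0.215 RPM in the CSR-1B IPs, a ratio of 344 (94.9 to 2840) that rests on 2 counts in the CSR-1B IPs. F48E3.9 had 166 and 157 RPM in the WAGO-1 IPs and 1.30 and 1.40 RPM in the CSR-1B IPs, with a ratio of 116 (68.7 to 212). In C17H11.2, M163.8 and F41C3.8 the ratios were 232 (90.4 to 852), 204 (56.2 to 1685) and 153 (59.8 to 564), and every WAGO-1 IP library lay above every CSR-1B IP library in all 8 genes.

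In 6 of these 8 genes the inputs also differed by over 2-fold between the strains, with log2 differences between 1.94 for F41C3.8 and 3.73 for C17H11.2. The inputs of M163.8 differed by 0.85 ± 0.22 (edgeR adjusted p = 0.00377) and those of *hex-5* by 0.49 ± 0.36 (adjusted p = 0.223). *aakg-2* had 32.6 and 35.3 RPM in the WAGO-1 inputs and 1.42 and 1.57 RPM in the CSR-1B inputs, and the wild-type FLAG inputs had a mean of 4.17 ± 0.653 RPM (SD, n = 3). F48E3.9 had a mean of 48.4 RPM in the WAGO-1 inputs, 3.13 RPM in the CSR-1B inputs and 5.10 RPM in the wild-type inputs. For *frm-3* the means were 8.48, 0.666 and 0.517 RPM. In each of the 8 genes the mean of the WAGO-1 inputs lay above that of the wild-type inputs, the smallest gap being that of *hex-5* with 1.89 against 1.07 RPM. No test was run against the wild-type inputs. The part of strain in the fold of these genes cannot be told apart from that of the Argonaute. Corrected for the inputs all 8 stayed on the WAGO-1 side, and in the 6 genes with counts in the CSR-1B IPs the log2 difference lay between 4.55 for F48E3.9 and 7.25 for M163.8, below the direct values of 8.28 and 8.91.

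The 8 genes that led towards CSR-1B all lie on autosomes. *snr-2*, a core protein of the splicing snRNPs, had 5.08 and 2.80 RPM in the WAGO-1 IPs and 615 and 857 RPM in the CSR-1B IPs, a log2 difference of −6.17 ± 0.24 (SE, edgeR adjusted p = 3.45e-12). *nol-58*, a nucleolar protein of the box C/D snoRNPs, had 12.6 and 11.8 RPM in the WAGO-1 IPs and 1136 and 1289 RPM in the CSR-1B IPs (log2 −5.21 ± 0.16). *cgh-1*, a DEAD-box RNA helicase that protects maternal mRNAs in the germline, had 6.96 and 6.90 RPM in the WAGO-1 IPs and 575 and 844 RPM in the CSR-1B IPs (log2 −5.26 ± 0.21). In each of these genes both CSR-1B libraries lay far above both WAGO-1 libraries.

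*emc-6*, a subunit of the membrane protein insertion complex of the endoplasmic reticulum, had 2.94 and 2.14 RPM in the WAGO-1 IPs and 315 and 402 RPM in the CSR-1B IPs. *algn-3*, a mannosyltransferase of protein glycosylation, had 4.82 and 4.01 RPM in the WAGO-1 IPs and 497 and 591 RPM in the CSR-1B IPs. *chch-3*, a protein of the mitochondrial inner membrane, was the most uneven between the CSR-1B IPs of the 8, at 179 and 353 RPM against 2.81 and 2.52 RPM for WAGO-1. F42A9.6 (WBGene00018335, chromosome IV, 8609239 to 8611595) and *haps-1* had log2 differences of −5.97 and −5.06. Here the inputs ran the other way. *snr-2* had 28.8 and 26.9 RPM in the WAGO-1 inputs and 9.54 and 10.3 RPM in the CSR-1B inputs. In all 8 genes the mean RPM of the WAGO-1 inputs was higher than that of the CSR-1B inputs. With TMM the log2 differences of the inputs lay between 0.19 ± 0.10 for *cgh-1* (edgeR adjusted p = 0.0887) and 1.20 for *algn-3*, with 0.40 for *snr-2*. Corrected for inputs, the differences towards CSR-1B grew, to between −6.18 for *cgh-1* (from −5.26) and −7.41 for *algn-3*. The corrected fit was scaled anew over IPs and inputs together, so its values change with scaling as well as with the inputs. The part of each in this growth was not tested.

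**Figure D1:**
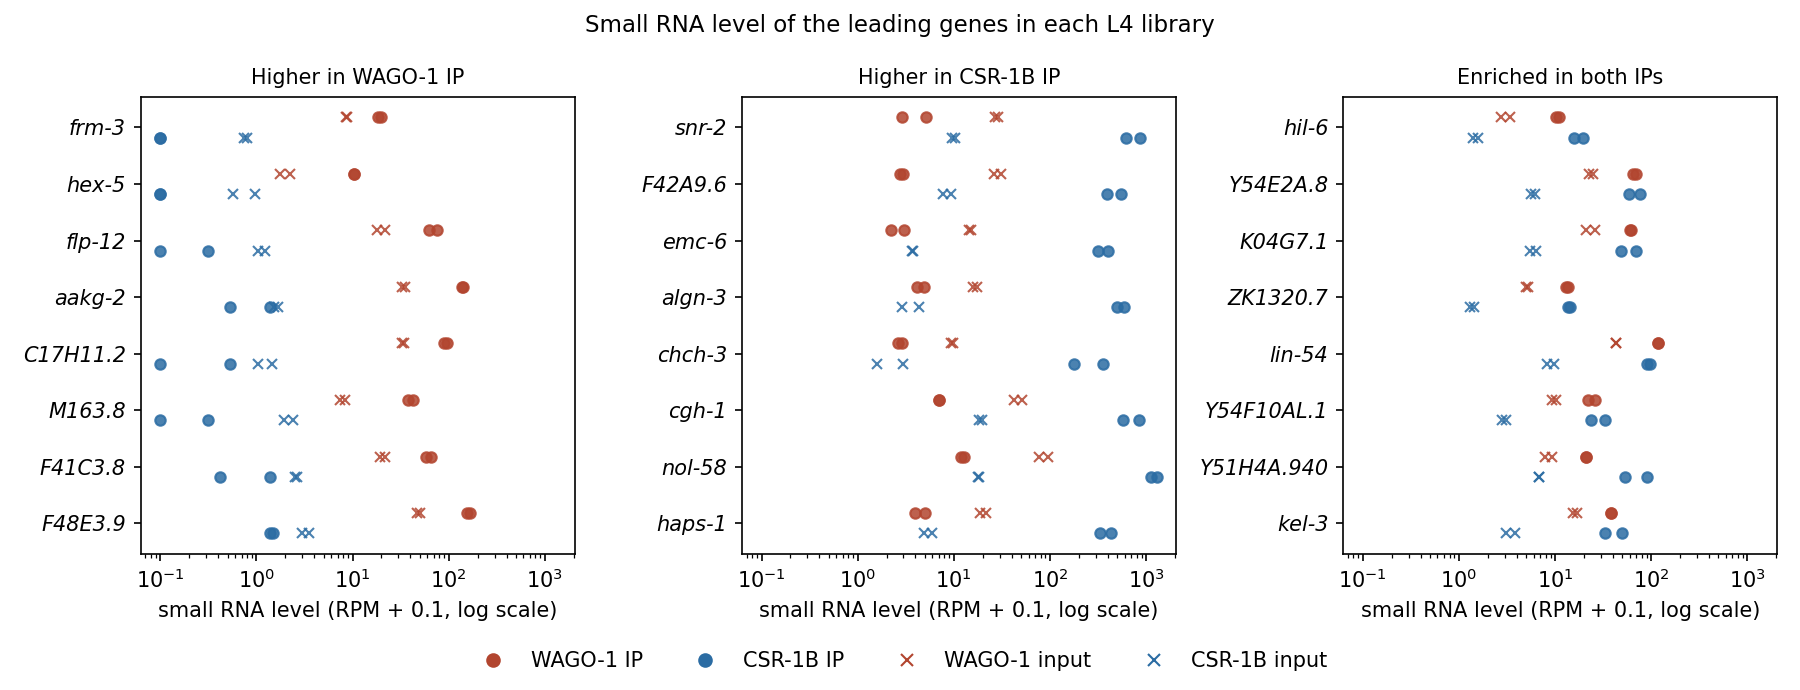
Small RNA level of the leading genes in each L4 library, as RPM + 0.1 on a log scale; points are IP libraries and crosses are inputs, red for WAGO-1 and blue for CSR-1B. In the left panel the WAGO-1 IPs sit between 10.2 and 166 RPM and the CSR-1B IPs at 1.40 RPM or below, in the middle panel the CSR-1B IPs sit at 179 RPM or above and the WAGO-1 IPs at 12.6 RPM or below, and in the right panel both IPs sit above their own inputs.

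Strain inputs differed at many genes. Of 13492 genes tested between inputs, 2555 (18.9%) were higher in the WAGO-1 input and 1714 (12.7%) in the CSR-1B input, and with library size alone the counts were 4431 and 1045. With TMM, more of the genes called between IPs had inputs that differed in the opposite direction than in the same one. Among the 3225 genes higher in the CSR-1B IP, 1539 were higher in the WAGO-1 input and 188 in the CSR-1B input. Among the 2751 genes higher in the WAGO-1 IP, 909 were higher in the CSR-1B input and 250 in the WAGO-1 input. Correcting the difference of the IPs for the inputs gave 2429 genes (16.7% of 14541 tested) on the WAGO-1 side and 4310 (29.6%) on the CSR-1B side. This fit was scaled over IPs and inputs together, so it differs from the direct comparison in scaling too. Of the genes called directly, 2319 (84.3%) stayed on the WAGO-1 side and 3072 (95.3%) on the CSR-1B side, and 10 and 3 genes crossed to the opposite side. The 3 that crossed to the WAGO-1 side were *par-2*, a polarity gene of the embryo, the pyruvate kinase gene *pyk-1*, and *abhd-14*, all named after their values were seen. The first 2 fell below 2-fold in the direct comparison when 1 library was left out (*par-2* to log2 −0.90 without WAGO-1 IP replicate 2, *pyk-1* to −0.95 without CSR-1B IP replicate 2). *abhd-14* had 10.4 and 12 RPM in the WAGO-1 IPs and 119 and 105 RPM in the CSR-1B IPs, but 2.94 and 2.66 RPM in the WAGO-1 inputs and 306 and 329 RPM in the CSR-1B inputs, so that the order of the IPs follows that of the inputs. In these whole animals, fewer cells of a type and less small RNA per cell cannot be told apart.

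Beside the wild-type FLAG inputs, the inputs of both CSR-1 strains were lower on the autosomes, and the WAGO-1 inputs were higher. Against the mean of the wild-type FLAG inputs, the median log2 level of 5365 genes in the CSR-1B inputs was between −1.36 and −1.05 on the 5 autosomes and 0.00 and 0.03 on the X chromosome. The CSR-1A + B inputs were lower on the autosomes as well, between −1.21 and −0.73, whereas the WAGO-1 inputs lay between 0.29 and 0.52 above the wild-type level there. The inputs of the strain with a tagged CSR-1A lay near the wild-type level on the autosomes, between −0.09 and 0.09. The genes of the CSR-1B side took 14.4 and 14.9% of the counts in the CSR-1B inputs, 13.1 and 13.3% in the CSR-1A + B inputs, 20.2 to 23.9% in the wild-type inputs and 32.8 and 31.5% in the WAGO-1 inputs. The file headers give one release of the counting tool for the CSR-1B and CSR-1A + B strains (and for the total small RNA). They give another for the WAGO-1, CSR-1A and wild-type FLAG libraries. Total small RNA of wild type, counted with the release of the CSR-1B and CSR-1A + B strains but not an input of an IP, lay between −0.25 and −0.18 on the autosomes. Strain, set of libraries and counting release cannot be told apart in the inputs. The part of the lower inputs in the enrichment values was not tested.

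Against their own inputs, 2284 genes (16.9% of 13527 tested) were enriched in the WAGO-1 IP and 3599 (27.1% of 13287) in the CSR-1B IP. Enriched means called by the same rule and not called in the wild-type FLAG control, in which 472 of 12252 genes (3.85%) were higher in the IP. Of the WAGO-1 enriched genes, 2181 (95.5%) were also higher in the WAGO-1 IP in the direct comparison, and 3 (0.131%) were higher in the CSR-1B IP. Of the CSR-1B enriched genes, 2675 (74.3%) were higher in the CSR-1B IP, against 60 (1.67%) in the WAGO-1 IP. Most counts of each IP fell on the genes of its own side, which is a description, since the sides were chosen from these libraries. The 2319 genes of the WAGO-1 side, those called directly and after input correction, took 81.6 and 82.7% of the counts in the WAGO-1 IPs and 13.6 and 12.5% in the CSR-1B IPs. The 3072 genes of the CSR-1B side took 61 and 67.1% of the counts in the CSR-1B IPs and 5.68 and 5.42% in the WAGO-1 IPs.

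**Figure D2:**
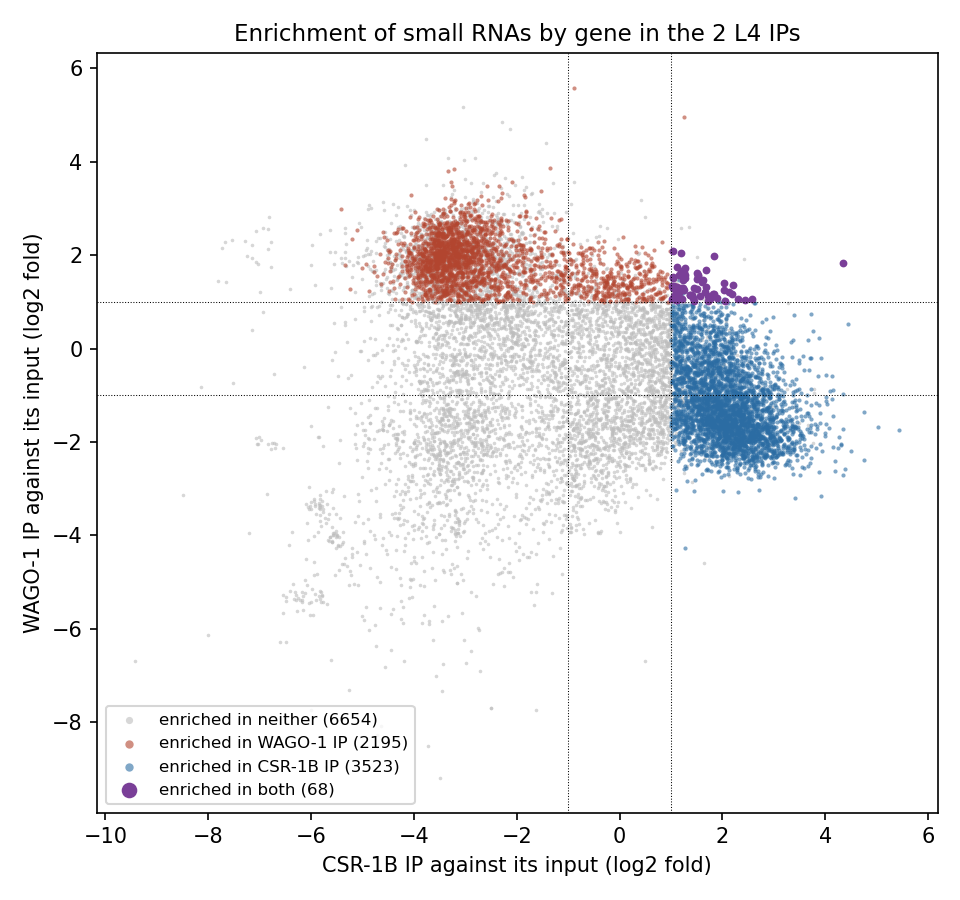
Log2 enrichment of each gene in the CSR-1B IP (horizontal) and in the WAGO-1 IP (vertical) over their own inputs, one point per gene tested against both inputs, with dotted lines at 2-fold. The 68 genes enriched in both (purple) fill a thin corner, none of them at 4-fold or more on both axes, between 3523 genes enriched only in the CSR-1B IP by this call and 2195 only in the WAGO-1 IP.

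Few genes were enriched with both proteins. By the call rule, 68 of 12440 genes tested against both inputs (0.547%) were loaded in both IPs, which is 2.98% of the WAGO-1 list and 1.89% of the CSR-1B list. Of these, 65 are protein-coding, and their levels were modest. Over the 68 genes, the lowest, median and highest levels were 9.10, 38.1 and 145 RPM in WAGO-1 IP replicate 1, and 11.7, 40.8 and 790 RPM in CSR-1B IP replicate 2. The median level in the inputs was 17.8 and 15.3 RPM in the WAGO-1 strain and 4.29 and 4.42 RPM in the CSR-1B strain, so both enrichments started from inputs that differed between strains. The list hung on the shallow library: without CSR-1B IP replicate 1, 234 genes were loaded in both, including all 68, and at a minimum of 4-fold none were. Of 68, 62 were also enriched in the CSR-1A + B IP, where 94.4% of all CSR-1B enriched genes and 30.4% of all genes tested were.

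*lin-54* (WBGene00003037, chromosome IV, 13241051 to 13243401), the DNA-binding subunit of the DREAM repressor complex, had 117 and 119 RPM in the WAGO-1 IPs and 97.4 and 90.2 RPM in the CSR-1B IPs. Its inputs were 43.4 and 43.3 RPM for WAGO-1 and 8.20 and 9.62 RPM for CSR-1B. The log2 enrichments were 1.62 ± 0.10 and 1.5 ± 0.20 (SE), and every IP library lay above every input library of its strain. *hil-6*, a linker histone gene, had the largest value of the smaller enrichment of a gene, with 11 and 10.2 RPM in the WAGO-1 IPs and 15.6 and 19.3 RPM in the CSR-1B IPs and log2 enrichments of 1.99 and 1.84. Y54E2A.8 and K04G7.1 had similar RPM in both IPs, at 70.0 and 64.9 against 58.4 and 76.9 RPM, and 61.4 and 60.6 against 48 and 69.3 RPM. In both genes the ranges of the IPs overlapped, although with TMM both were called higher in the WAGO-1 IP (log2 1.36 ± 0.17 and 1.40 ± 0.18), a call that was lost with library size alone and without CSR-1B IP replicate 1 (0.27 and 0.28).

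The remaining leading genes loaded in both were *kel-3*, a kelch-repeat gene, ZK1320.7, Y54F10AL.1 and a snoRNA gene (WBGene00220176), of which 83.3% of 22-base words occur elsewhere in the genome. Direct calls of the 68 genes depended on the scaling. With TMM, 41 were higher in the WAGO-1 IP, 2 in the CSR-1B IP and 25 were not called, and with library size alone 3, 8 and 57 were. Without CSR-1B IP replicate 1 the log2 difference of *lin-54* dropped from 1.79 to 0.85 and that of *hil-6* went from 0.64 to −0.42. In RPM the WAGO-1 IPs lay above the CSR-1B IPs in 11 genes and below in 36, and in 21 the libraries overlapped. Under every scaling 3 genes stayed higher in the WAGO-1 IP, the actin-related gene *arp-6*, *dyf-17* and *lelo-2*, and 2 in the CSR-1B IP, *metl-6*, named for a methyltransferase-like protein, and ZK185.9 (all 5 named after their values were seen). *metl-6* had 74.7 and 75.6 RPM in the WAGO-1 IPs and 666 and 790.1 RPM in the CSR-1B IPs, and 8.43% of its exonic bases are shared with another gene. A wider description counts the 3320 genes with at least 10 RPM in each of the 4 IP libraries, of which 1409 were higher in the WAGO-1 IP, 1008 in the CSR-1B IP, and 903 were not called. Small RNAs of these genes were present in both IPs, and 721 of them were enriched in neither.

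The genes of the small RNA pathways themselves fell on both sides, more of them higher in the CSR-1B IP than in the WAGO-1 IP, and many were not called. Of 5 genes for CSR-1 and the factors that make its small RNAs, 3 (60%) were higher in the CSR-1B IP, against none in the WAGO-1 IP. Over all genes tested the shares were 24.7 and 21.1%. *csr-1* itself had 35.9 and 32.3 RPM in the WAGO-1 IPs and 2263 and 3234 RPM in the CSR-1B IPs (log2 −4.91 ± 0.18, adjusted p = 1.45e-12), the widest gap of the 5. *ego-1*, the RNA-dependent RNA polymerase of this pathway, had 41.7 and 33.5 RPM in the WAGO-1 IPs and 589 and 795 RPM in the CSR-1B IPs, and its helicase partner *drh-3* had 17.3 and 14.6 RPM in the WAGO-1 IPs and 349 and 447 RPM in the CSR-1B IPs. All 3 were clearly separated, although *csr-1* is tagged in the CSR-1B strain and counts on the gene do not distinguish tagged from untagged transcripts.

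Of 9 Argonaute genes of the WAGO clade tested, 4 (44.4%, against 24.7% of all genes) were higher in the CSR-1B IP. In the WAGO-1 IP 1 (11.1%, against 21.1% of all genes) was higher. The 4 higher in the CSR-1B IP were *ppw-2* (55.7 and 46.9 RPM in the WAGO-1 IPs and 2003 and 2448 RPM in the CSR-1B IPs), *wago-4*, an Argonaute of inherited RNA interference (log2 −2.87 ± 0.14), the nuclear Argonaute gene *hrde-1* (log2 −1.99 ± 0.15) and *wago-1*. Small RNAs of *wago-1*, the gene of the immunoprecipitated protein, were at 14.6 and 13.7 RPM in the WAGO-1 IPs and 218 and 284 RPM in the CSR-1B IPs (log2 −2.74 ± 0.18), higher in the CSR-1B IP. *wago-5* went the other way, at 36.4 and 35 RPM in the WAGO-1 IPs and 5.19 and 9.35 RPM in the CSR-1B IPs (log2 3.47 ± 0.24). Among the 8 other Argonaute genes, *prg-1*, which encodes the Piwi protein, was the most abundant, with 456 and 494 RPM in the WAGO-1 IPs and 2843 and 3562 RPM in the CSR-1B IPs, and *rde-1* and *alg-5* were higher in the CSR-1B IP too (log2 −2.45 and −2.43). *alg-3*, an Argonaute of spermatogenesis, was called higher in the WAGO-1 IP (log2 1.52 ± 0.28) but not under every scaling, with overlapping RPM ranges of 17 and 16.3 against 22.1 and 14.1, and a log2 difference of 0.70 without CSR-1B IP replicate 1 and 0.95 without replicate 2. It was named after its values were seen.

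Of 21 genes for the mutator complex and RNA interference, 9 (42.9%) were higher in the CSR-1B IP, against 5 (23.8%) in the WAGO-1 IP, the latter share being near the 21.1% over all genes. The first group held *mut-16*, the scaffold of mutator foci (48.8 and 44.1 RPM in the WAGO-1 IPs and 293 and 378 RPM in the CSR-1B IPs), the helicase gene *mut-14* (log2 −2.69) and Dicer, *dcr-1* (log2 −2.32). The second was led by *sid-1*, the channel that imports double-stranded RNA, at 944 and 966 RPM in the WAGO-1 IPs and 67.5 and 81.9 RPM in the CSR-1B IPs (log2 5.07 ± 0.16, adjusted p = 5.10e-13). *rde-11*, a RING-type factor of RNA interference, had 600.3 and 552 RPM in the WAGO-1 IPs and 117 and 107 RPM in the CSR-1B IPs. *rrf-2*, an RNA-dependent RNA polymerase gene, had 160.3 and 162 RPM in the WAGO-1 IPs and 50.6 and 20.5 RPM in the CSR-1B IPs, with no overlap in any of the 3. The other 2, *nyn-2* and *smut-1*, had log2 differences of 1.98 and 1.90 and did not pass under every scaling, nor without CSR-1B IP replicate 1 (0.91 and 0.83).

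Genes of germline structure were mostly higher in the CSR-1B IP. Of 18 P granule and Z granule genes, 13 were higher in the CSR-1B IP, against 24.7% of all genes, and their median log2 difference relative to that of all genes was −3.31. *pid-2*, a Z granule gene, had 76.9 and 68 RPM in the WAGO-1 IPs and 2814 and 2836 RPM in the CSR-1B IPs, and *mip-1*, a LOTUS domain protein of P granules, had 31.4 and 27.5 RPM in the WAGO-1 IPs and 1371 and 1752 RPM in the CSR-1B IPs. The Vasa-like helicase genes *glh-1* and *glh-4* had log2 differences of −1.51 and −2.73. The 2 members that were higher in the WAGO-1 IP, *meg-3* and *meg-4*, encode disordered scaffold proteins of P granules in the embryo and lie on the X chromosome (named after their values were seen). *meg-4* had 467 and 501 RPM in the WAGO-1 IPs and 16.9 and 11.1 RPM in the CSR-1B IPs (log2 6.78 ± 0.21), and *meg-3* had 62.5 and 62.5 RPM in the WAGO-1 IPs and 3.89 and 2.26 RPM in the CSR-1B IPs.

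Of the 20 lists, that of kinetochore, spindle and tubulin genes had the largest share on the CSR-1B side. In it 36 of 39 genes (92.3%, where 24.7% of all genes were) were higher in the CSR-1B IP, against 0 in the WAGO-1 IP. By the input-corrected difference all 39 were on the CSR-1B side. *icp-1*, the INCENP of the chromosomal passenger complex, had 92.2 and 81.1 RPM in the WAGO-1 IPs and 1515 and 1605 RPM in the CSR-1B IPs, and *spd-5*, the scaffold of the centrosome, had 43.4 and 34.5 RPM in the WAGO-1 IPs and 1045 and 1106 RPM in the CSR-1B IPs. *spd-1*, a bundler of the central spindle, and *klp-7*, a depolymerizing kinesin, had log2 differences of −3.48 and −2.17. Among 32 genes of the meiotic axis, synapsis and recombination, 21 (65.6%, against 24.7% of all genes) were higher in the CSR-1B IP. They were led by the HORMA domain gene *htp-1* (43.4 and 44.5 RPM in the WAGO-1 IPs and 1533 and 2020 RPM in the CSR-1B IPs) and the kinase gene *chk-2* (log2 −3.37). The 2 that were higher in the WAGO-1 IP, *dsb-1*, needed for meiotic double-strand breaks, and *cosa-1*, a marker of crossovers, had overlapping RPM in the IPs (83.6 and 76.7 against 50.6 and 76.9 RPM for *dsb-1*) and were not called under every scaling, nor without CSR-1B IP replicate 1 (log2 0.52 and 0.51). They were named after their values were seen.

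Of 54 oocyte and maternal genes, 38 (70.4%) were higher in the CSR-1B IP, against 8 (14.8%) in the WAGO-1 IP. Over all genes the shares were 24.7 and 21.1%. All 38 passed under every scaling, but only 2 of the 8 did, and after input correction 3 genes of the list were on the WAGO-1 side. *car-1*, an RNA-binding protein of germline granules, had 31.2 and 28.2 RPM in the WAGO-1 IPs and 1359 and 1765 RPM in the CSR-1B IPs, *gld-1*, a translational repressor of germline development, had 18.7 and 17.3 RPM in the WAGO-1 IPs and 496 and 537 RPM in the CSR-1B IPs, and *egg-6* had a log2 difference of −2.95. The largest opposite value was that of X-linked *puf-9*, a Pumilio-family gene (named after its value was seen), with 419.6 and 408 RPM in the WAGO-1 IPs and 10.4 and 15.1 RPM in the CSR-1B IPs. Of 19 germline chromatin regulators 13 (68.4%, against 24.7% of all genes) were higher in the CSR-1B IP. Among them *morc-1* was the most abundant, with 72.5 and 67.7 RPM in the WAGO-1 IPs and 2443 and 3082 RPM in the CSR-1B IPs. The methyltransferase genes *met-2* and *mes-4* and the repressor gene *lin-61* had log2 differences of −2.35, −2.89 and −3.35. The single chromatin regulator called higher in the WAGO-1 IP was the heterochromatin protein gene *hpl-2*, at 137 and 151 RPM in the WAGO-1 IPs and 139 and 149 RPM in the CSR-1B IPs, with overlapping libraries and a call that did not pass under every scaling, nor without CSR-1B IP replicate 1 (log2 0.41). It was named after its values were seen.

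Most sperm-named genes were not called in the direct comparison. Of 76 tested, 24 (31.6%, against 24.7% of all genes) were higher in the CSR-1B IP. In the WAGO-1 IP 4 (5.26%, against 21.1% of all genes) were higher, and 48 were not called. After input correction 42 of 84 were on the CSR-1B side and 3 on the WAGO-1 side, against 29.6 and 16.7% of all genes. Of the 84 members, 8 were enriched in the CSR-1B IP over its input and 1 in the WAGO-1 IP, against 27.1 and 16.9% of all genes tested. *ssp-16* had 22.2 and 25.7 RPM in the WAGO-1 IPs and 262 and 385 RPM in the CSR-1B IPs and *spe-41*, a calcium channel of sperm, 151 and 149 RPM in the WAGO-1 IPs and 48 and 36.4 RPM in the CSR-1B IPs, the former higher in the CSR-1B and the latter in the WAGO-1 IP, with no overlap in either gene. Of 14 sex determination genes, 7 (50%, against 21.1% of all genes) were higher in the WAGO-1 IP. In the CSR-1B IP 4 (28.6%) were higher, near the 24.7% of all genes. *sdc-1*, which acts in dosage compensation of the X chromosome, had 238 and 224 RPM in the WAGO-1 IPs and 9.09 and 10.2 RPM in the CSR-1B IPs (log2 5.97 ± 0.20), and *xol-1*, the switch gene that senses X chromosome number, had 65.6 and 65.5 RPM in the WAGO-1 IPs and 9.09 and 4.94 RPM in the CSR-1B IPs. *fem-2*, a phosphatase gene of male development, had 5.49 and 4.47 RPM in the WAGO-1 IPs and 80.5 and 87.1 RPM in the CSR-1B IPs.

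The families of F-box, BATH and MATH genes, adaptors of ubiquitin ligases that have expanded in worms, stood on the WAGO-1 side. Of 395 members, 180 passed the filter on low counts, and of those 79 (43.9%) were higher in the WAGO-1 IP and 8 (4.44%) in the CSR-1B IP. For all genes these shares were 21.1 and 24.7%. Their summed level was 26638 and 26621 RPM in the WAGO-1 IPs, 6130 and 6530 RPM in the CSR-1B IPs, and between 11596 and 14254 RPM in the 4 inputs. *bath-45* had 4887 and 4840 RPM in the WAGO-1 IPs and 849 and 800.2 RPM in the CSR-1B IPs (log2 3.99 ± 0.13, adjusted p = 5.78e-13), where its inputs were 1908 and 1745 and 2362 and 2599 RPM. *bath-20* and *fbxc-43* had log2 differences of 3.71 and 4.08, and *fbxa-41* had 1412 and 1589 RPM in the WAGO-1 IPs and 79.2 and 72.4 RPM in the CSR-1B IPs, although 64.7% of its 22-base words occur elsewhere. *bath-40* showed the widest gap among the 8 members on the other side (named after its value was seen), with 12.4 and 10.5 RPM in the WAGO-1 IPs and 326 and 585 RPM in the CSR-1B IPs.

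Of 6 genes chosen as examples of silencing through Piwi-interacting RNAs or the ERGO-1 pathway, 3 (50%, against 21.1% of all genes) were higher in the WAGO-1 IP. These were *bath-45*, *bath-13* (log2 3.52 ± 0.14) and *xol-1*, and none was higher in the CSR-1B IP. The 3 not called include the ERGO-1 pathway genes K02E2.6, at 129 and 121 RPM in the WAGO-1 IPs and 624 and 454 RPM in the CSR-1B IPs, and E01G4.5, at 24.1 and 28 RPM in the WAGO-1 IPs and 217 and 85.3 RPM in the CSR-1B IPs. In the inputs K02E2.6 had 1477 and 1361 RPM in the WAGO-1 inputs and 1952 and 1943 RPM in the CSR-1B inputs, and E01G4.5 had 126 and 119 RPM in the WAGO-1 inputs and 141 and 135 RPM in the CSR-1B inputs. Small RNAs of both genes were lower in the WAGO-1 IPs than in their inputs. Those of K02E2.6 were also lower in the CSR-1B IPs than in the CSR-1B inputs. For E01G4.5 the CSR-1B IPs lay above and below the CSR-1B inputs. Without CSR-1B IP replicate 1 both were called higher in the CSR-1B IP, with log2 differences of −1.40 for K02E2.6 and −1.23 for E01G4.5, and E01G4.5 was also called without CSR-1B IP replicate 2 (−1.69) or WAGO-1 IP replicate 2 (−1.16).

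Of 240 C-type lectin genes 66 were tested, and 8 (12.1%, against 21.1% of all genes) were higher in the WAGO-1 IP, among them *clec-223* at 48.6 and 57.2 RPM in the WAGO-1 IPs and 0 and 1.29 RPM in the CSR-1B IPs. A pair was higher in the CSR-1B IP, of which *clec-87* had 5.89 and 4.85 RPM in the WAGO-1 IPs and 108 and 110.1 RPM in the CSR-1B IPs. Serpentine receptors, the large families of worm chemoreceptors, rarely passed the filter. Of 1376 members by symbol, 154 were tested, 18 (11.7%, also below the share of all genes) were higher in the WAGO-1 IP, led by *srh-171* (287 and 290.3 RPM in the WAGO-1 IPs and 23.4 and 27.6 RPM in the CSR-1B IPs), and 9 in the CSR-1B IP. The symbols match genes of other kinds as well. *srrt-1*, which had 13.6 and 11.6 RPM in the WAGO-1 IPs and 138 and 179.8 RPM in the CSR-1B IPs, and several others of the 9 do not encode such receptors. Medians over these lists (4.03 for the receptors, 3.59 for the lectins and 3.47 for the F-box, BATH and MATH genes) rest on members that passed the filter.

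Ribosomal protein genes, by contrast, lay on the CSR-1B side. Of 78 cytoplasmic ribosomal protein genes, whose mRNAs had a median of 3574 FPKM, 60 were higher in the CSR-1B IP, against 3 in the WAGO-1 IP. *rps-18* had 7.23 and 6.52 RPM in the WAGO-1 IPs and 288 and 377 RPM in the CSR-1B IPs, and *rpl-38* and *rpl-41.2* had log2 differences of −3.60 and −3.99. Of the 78, 25 counted as enriched in the CSR-1B IP over its input, where 27.1% of all genes tested did. Another 21 were called in the wild-type FLAG control and could not count as enriched. The 3 exceptions were *rpl-11.2* on the X chromosome, at 331 and 329 RPM in the WAGO-1 IPs and 7.79 and 12.4 RPM in the CSR-1B IPs (log2 6.27 ± 0.20), its X-linked neighbour in the list *rpl-25.1*, at 11.5 and 12.2 RPM in the WAGO-1 IPs and 3.89 and 1.07 RPM in the CSR-1B IPs, and *rpl-42* on chromosome II, at 216 and 199.9 RPM in the WAGO-1 IPs and 15.6 and 15.3 RPM in the CSR-1B IPs (the last 2 named after their values were seen). All 3 were separated in every library.

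Of 78 histone genes, 16 (20.5%) were higher in the WAGO-1 IP and 19 (24.4%) in the CSR-1B IP, shares near those of all genes (21.1 and 24.7%), and 9 and 17 passed under every scaling. Linker histone genes were found on both sides. *his-24* had 3484 and 3676 RPM in the WAGO-1 IPs and 731 and 792 RPM in the CSR-1B IPs, although it shares 18.9% of its exonic bases with another gene, *hil-8* had 3059 and 3086 RPM in the WAGO-1 IPs and 602 and 491 RPM in the CSR-1B IPs, and *hil-3* had 679.8 and 706 RPM in the WAGO-1 IPs and 110.3 and 162 RPM in the CSR-1B IPs. All 3 remained well represented in the CSR-1B IPs, although no library there reached the level of the WAGO-1 IPs. *hil-4* was at 20.7 and 25.1 RPM in the WAGO-1 IPs and 582 and 815 RPM in the CSR-1B IPs, with log2 −3.50 ± 0.19 in the other direction, and *hil-6* was loaded in both, as described above.

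Few genes of the somatic lists were called, apart from the vitellogenins. Of 76 cuticle collagens tested, 12 (15.8%, below the share of all genes) were higher in the WAGO-1 IP, led by *col-111* (456 and 483 RPM in the WAGO-1 IPs and 136 and 125 RPM in the CSR-1B IPs), *col-157* and *col-45* (log2 4.05 and 3.72). The list cannot be read as enrichment, since 68 of its 156 members were called in the wild-type FLAG control. Of 19 other somatic markers, the synaptic gene *snb-1* was higher in the CSR-1B IP (8.30 and 6.24 RPM in the WAGO-1 IPs and 75.3 and 97.4 RPM in the CSR-1B IPs) and the muscle myosin gene *unc-54* in the WAGO-1 IP (log2 1.16 ± 0.25), the latter with overlapping libraries, not under every scaling, and without a call when WAGO-1 IP replicate 1 (0.89) or CSR-1B IP replicate 1 (0.45) or 2 (0.47) was left out. The summed level of the somatic list was 97 and 79.1 RPM in the WAGO-1 IPs, 214 and 178 RPM in the CSR-1B IPs, and between 194 and 293 RPM in the inputs. For the vitellogenins 5 of 6 were called higher in the CSR-1B IP. *vit-6* had 1.87 and 0.746 RPM in the WAGO-1 IPs and 90.9 and 18.8 RPM in the CSR-1B IPs, and 4.78 and 3.29 RPM in the WAGO-1 inputs and 27.4 and 16.2 RPM in the CSR-1B inputs. Replicate 1 of the CSR-1B strain was the highest in IP and input, and *vit-6* had a mean of 82.2 RPM in the wild-type FLAG IPs, so the WAGO-1 libraries are the low ones. After input correction none of the 6 was called, and *vit-6* and *vit-2* had log2 differences of −0.77 and −1.58. The part of background binding in these values was not tested.

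**Figure D3:**
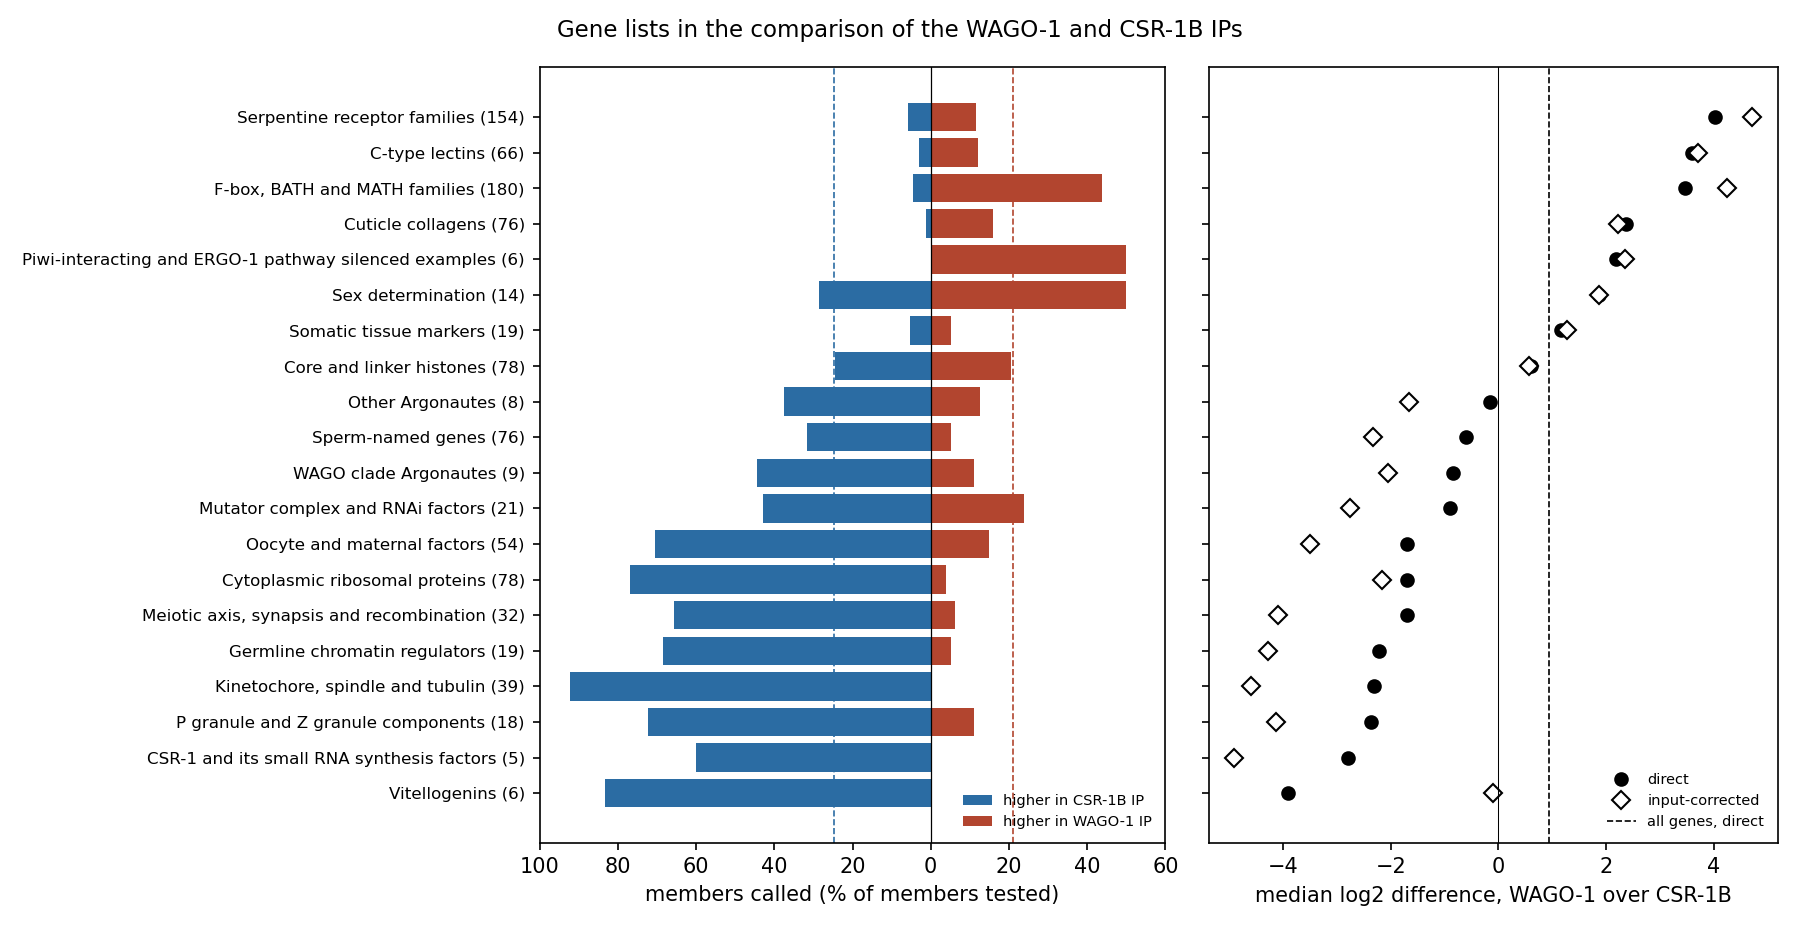
Gene lists in the comparison of the WAGO-1 and CSR-1B IPs. Left, percent of tested members called higher in the CSR-1B IP (blue, to the left) or the WAGO-1 IP (red, to the right), with dashed lines at the share over all genes (24.7 and 21.1%) and the number of members tested in parentheses; right, the median log2 difference of each list, direct (points) and input-corrected (diamonds), with the median of all genes at 0.93. The lists are ordered by their direct median over members that passed the filter, which puts receptors and lectins at the top although fewer of their members were called than of all genes, and the vitellogenin median moves from −3.91 to −0.10 with the input correction.

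The X chromosome stood apart from the autosomes. On the X chromosome 479 of 1604 genes tested (29.9%) were higher in the WAGO-1 IP and 60 (3.74%) in the CSR-1B IP, whereas on the autosomes 19.9 and 27.6% of 11420 genes were. The median log2 difference was 3.47 on X, against values between 0.01 on chromosome III and 1.83 on chromosome V. That median holds for the 1604 of 5761 X-linked genes that passed the filter on low counts, which a gene can pass through the WAGO-1 libraries alone, and 1065 of them were not called. Under every scaling 455 genes of X were higher in the WAGO-1 IP and 55 in the CSR-1B IP. Against their own inputs, 24.5% of X-linked genes were enriched with WAGO-1, compared with 15.8% of autosomal genes, and 0.685% (11 genes) with CSR-1B, compared with 30.8%. In the CSR-1A + B IP 1.71% of X-linked and 34.4% of autosomal genes were enriched. The inputs of both CSR-1 strains were below wild type on the autosomes and near it on X, as described above. This input difference enters the enrichment shares of both strains, and its part in them was not tested. None of the 68 genes loaded in both lies on X. Of the counts in the libraries, genes of X took 12 and 12.2% in the WAGO-1 IPs, 3.63 and 3.32% in the CSR-1B IPs, and between 12 and 13.6% in the inputs. Among autosomes, chromosome III held the largest share of genes higher in the CSR-1B IP (33.4%) and chromosome V the smallest (19.6%). No test was run between chromosomes.

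**Figure D4:**
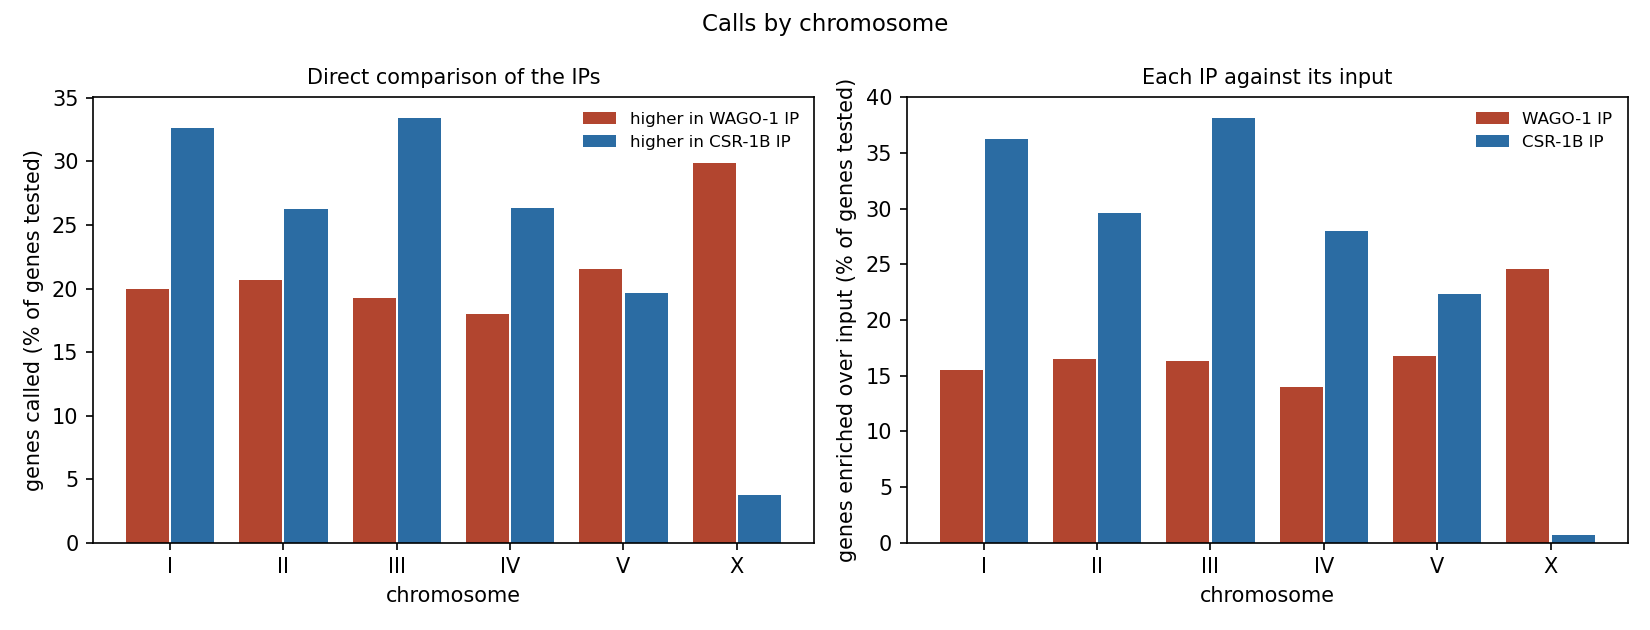
Percent of tested genes called on each chromosome: left, higher in the WAGO-1 IP (red) or CSR-1B IP (blue) directly; right, enriched over the input of the same strain. The blue bars fall from between 19.6 and 33.4% on autosomes to 3.74% on X (left) and from between 22.3 and 38.2% to 0.685% (right), and the red bars are highest on X.

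Among the kinds of genes, pseudogenes stood on the WAGO-1 side. Of 821 tested, 323 (39.3%) were higher in the WAGO-1 IP and 40 (4.87%) in the CSR-1B IP, with 285 and 36 under every scaling. For all genes these shares were 21.1 and 24.7%. Pseudogenes took 17.2 and 17.5% of the counts in the WAGO-1 IPs, 5.24 and 4.41% in the CSR-1B IPs, and 11.4 and 11.4% and 13.4 and 14.2% in the inputs of the strains. Small nuclear RNA genes lay on the other side, with 73 of 116 (62.9%) higher in the CSR-1B IP, against 14 (12.1%) in the WAGO-1 IP. Of 21 ribosomal RNA genes, 19 were called higher in the CSR-1B IP with TMM. Whether they pass under every scaling cannot be said, since the scalings include a fit without ribosomal RNA genes. Ribosomal RNA genes took 8.44 and 3.57% of the counts in the CSR-1B IPs against 1.69 and 1.11% in the WAGO-1 IPs. The files hold counts of genes and not reads, so neither length nor strand of the small RNAs was analysed here.

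Measures from libraries outside the comparison set the 2 sides apart. In wild-type L4 mRNA, the median level was 1.79 FPKM over the genes of the WAGO-1 side and 16.9 FPKM over those of the CSR-1B side, beside 5.32 FPKM over all tested genes. The medians were 1.63 to 1.85 FPKM and 16.3 to 17.5 FPKM in the 3 mRNA libraries taken singly. Of the WAGO-1 side 1019 genes (43.9%) were below 1 FPKM, against 234 (7.62%) of the CSR-1B side. In wild-type total small RNA the medians were 14 and 9.41 RPM per kilobase of exon, both above the 6.39 of all genes. A gene enters a side only with 10 RPM or more on average in an IP, which the other tested genes did not need. That both sides lie above all genes therefore follows in part from the call rule. The upper quartiles were 50.2 and 25.3 RPM, and the WAGO-1 side took 52.2 and 50.7% of the counts of the total small RNA libraries, against 23.9 and 24.2% for the CSR-1B side. On the log2 scale of FPKM + 0.1 the medians of mRNA differed by 3.16 between the sides. Genes loaded in both had a median of 14 FPKM and 8.11 RPM per kilobase, with 4 of 68 below 1 FPKM, close to the values of the CSR-1B side.

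Enrichment in the other CSR-1 IPs followed the same division. In the CSR-1A + B IP, the median log2 enrichment was −1.51 on the WAGO-1 side, 2.52 on the CSR-1B side and 1.65 in the genes loaded in both, and 0.862, 85.2 and 91.2% of these genes were enriched there. In the CSR-1A IP the medians were closer together, at −0.63, 0.70 and 0.24. In the wild-type FLAG control they were −0.23, 0.03 and 0.03. Gene structure differed little, with medians of 1235, 1415 and 1352 exonic bases and GC contents of 41.8, 41.9 and 41.4%. Genes with at least 10% of their 22-base words repeated elsewhere in the genome made up 25.6% of the WAGO-1 side, 12.3% of the CSR-1B side and 22% of all genes. For such genes, reads could be assigned to the wrong copy.

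**Figure D5:**
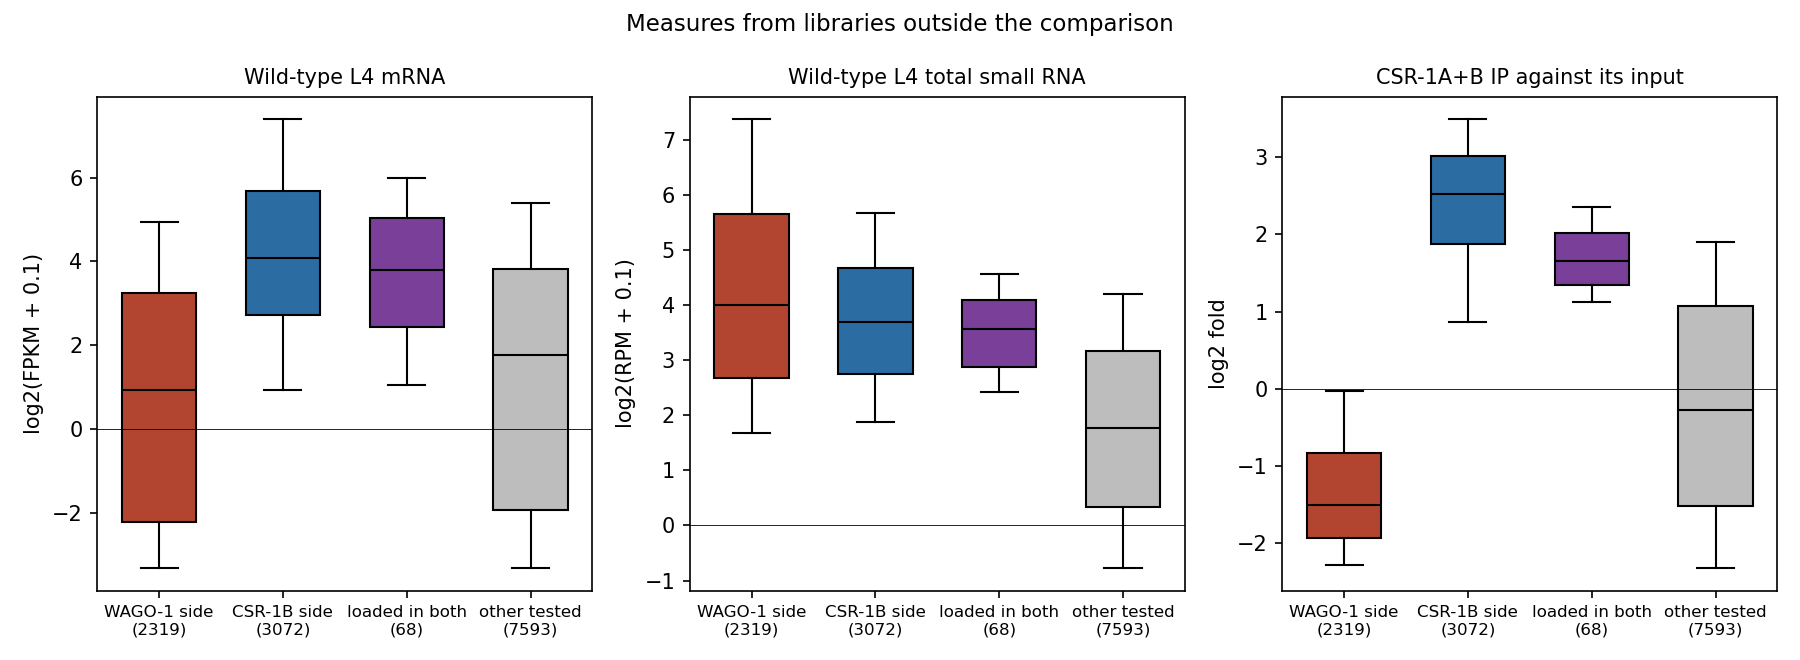
Wild-type L4 mRNA (log2 of FPKM + 0.1), wild-type L4 total small RNA (log2 of RPM + 0.1) and log2 enrichment in the CSR-1A + B IP for the genes of the WAGO-1 side, the CSR-1B side, those loaded in both and the other tested genes; boxes show quartiles and medians, and whiskers the 10th and 90th percentiles. The sides stand apart in mRNA (medians 1.79 and 16.9 FPKM) and in the CSR-1A + B IP (−1.51 and 2.52) while their boxes overlap in total small RNA, and the genes loaded in both lie near the CSR-1B side in all panels.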

How the data were processed

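Small RNA libraries (18 to 30 nt) of L4 animals were compared between FLAG IPs of WAGO-1 and CSR-1B. Per the study's methods, the authors clipped and filtered reads with the FASTX-Toolkit and mapped them to WS258 (WBcel235) with Bowtie2 2.2.2. The deposited values are estimated counts per gene from featureCounts, whole or as fractions where a read overlaps several genes, with release 1.6.5 for WAGO-1 and wild-type FLAG and 1.5.1 for CSR-1B per the file headers. For mRNA the authors deposited whole counts (HISAT2 2.1.0, featureCounts 2.0.0), from which FPKM was computed here. Estimated counts were rounded and tested with edgeR 4.0.16 (quasi-likelihood, TMM, filterByExpr, Benjamini-Hochberg adjustment) in R 4.3.3, and DESeq2 1.42.0 was the alternative. RPM is reads per 1000000 mapped to the genome, from the study's library statistics. Calls need 2-fold, adjusted p 0.05 and 10 RPM; 3 counts were the detection limit. By rule, the text names the 8 leading protein-coding genes of each direction (called directly and after input correction, no overlap of IP libraries, not called in the FLAG control), the 8 genes with the largest smaller enrichment among those enriched in both, each with under 5% of bases shared with another gene, up to 4 members of each list with the highest mean RPM, any Argonaute of the WAGO clade and any CSR-1, mutator or Piwi list member, and the tagged genes; others are marked as named after their values were seen. Members, lists and rules were chosen with earlier results of these data known. The fit was tested on simulated data. Libraries of other stages and mutants were not used.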

Additional observations from a re-analysis of the deposited data

Results flagged for a closer look

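The difference between WAGO-1 and CSR-1B enrichment over the inputs, tested as an interaction of IP and strain in edgeR, passed the threshold in 2429 genes on the WAGO-1 side and 4310 genes on the CSR-1B side of 14541 tested. Both counts stand for genes whose enrichment differs between the proteins, and the lower inputs of the CSR-1B strain and the scaling of this fit enter them. No group held enough libraries to look for single libraries that stand apart.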

How the results depend on the processing

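Of 172 counts and summary values recomputed under alternatives, 161 stayed within 1.5 times of the value reported. A minimum of 4-fold left 3880 genes called between the IPs, 1657 of them higher in the CSR-1B IP, and 0 genes loaded in both. Without a filter on low counts 1788 genes were higher in the WAGO-1 IP and 191 were loaded in both. Library size alone gave 1522 genes enriched in the WAGO-1 IP, 4431 higher in the WAGO-1 input and 1045 in the CSR-1B input. With DESeq2 size factors 132 genes were loaded in both. A pseudocount of 1 moved the log2 difference in mRNA between the sides from 3.16 to 2.68. Leaving out each library in turn gave 2223 to 2753 genes higher in the WAGO-1 IP, 2914 to 4365 higher in the CSR-1B IP and 52 to 234 loaded in both, the last without CSR-1B IP replicate 1, and 65 without replicate 2. Replicate numbers pair no libraries across strains by the labels, and the replicate differences of same-numbered IPs correlated at −0.0072 over 6638 genes. An input came from the lysate of an IP by the protocol, and the correlation of IP and input was 0.018 for WAGO-1 and 0.10 for CSR-1B. With the replicate number as a block, 2750 and 3179 genes were called between IPs, 2283 and 3548 were enriched over the inputs and 67 were loaded in both, and no direct call of a named gene changed. Of 2061 values of 115 named genes under alternatives, 1907 kept direction and call, and 9 reversed. The log2 difference of hil-6 went from 0.64 to −0.53 with library size alone, −0.10 without a filter, −0.11 with all FLAG libraries in the fit and −0.24 without ribosomal RNA genes, and ranged from −0.42 to 0.79 over left-out libraries. That of Y54F10AL.1 was −0.066 with library size alone, and that of unc-54 was −0.012 with library size alone and −1.45 with the CSR-1A + B IP in place of the CSR-1B IP. The snoRNA gene loaded in both ranged from −1.65 to 0.0096 over left-out libraries. Relative to all genes, the histone median went from −0.33 to 0.48 when libraries were thinned to the smallest, and the somatic median from 0.22 to −0.30 without a filter and −0.23 when thinned. The causes were not tested. Depth limits the CSR-1B IP most, since 1 count in its replicate 1 is 1.30 RPM.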

Other observations

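Of the 68 genes loaded in both IPs, 12 were also loaded in both with DESeq2 size factors, with library size alone, with DESeq2 and with the replicate block, and they were named after their values were seen. They are ced-3, the caspase gene of programmed cell death, the linker histone gene hil-6, lin-54 of the DREAM complex, ran-5, arp-6, dyf-17, metl-6, Y54E2A.8, Y66D12A.21, Y76B12C.3, ZK1320.7 and a tRNA gene on chromosome II. The log2 enrichment of ced-3 was 1.75 in the WAGO-1 IP and 1.11 in the CSR-1B IP, and that of ran-5, a gene of the Ran family by name, was 1.59 and 1.27. Y76B12C.3 leaned to the WAGO-1 IP (2.04 and 1.19), and metl-6 to the CSR-1B IP (1.83 and 4.34). None of the 12 lies on the X chromosome.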
